A study of Mus musculus with 36 samples.

Results

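CC chemokines, 8 ligands and 1 receptor, were followed in Lewis lung carcinoma (LLC) tumours of mice that differed in age and in exposure to iron ions. LLC is a mouse lung carcinoma line that grows as a tumour in mice. The 9 genes were Ccl2, Ccl7, Ccl8, Ccl12, Ccl3, Ccl4, Ccl5, Ccl9 and Ccr2, chosen by name and taken with every probe that the platform's probe table pairs with them, which gave 13 of the 45281 probes and 9 of the 19057 genes on the array. The tumours came from male mice and formed 4 groups: 5 from middle-aged irradiated, 7 from middle-aged unirradiated, 8 from young irradiated and 10 from young unirradiated mice. Irradiated mice received 56Fe ions in 5 exposures of 0.2 Gy each, and unirradiated mice none. The 6 other arrays held RNA of the LLC line itself as a chip control, 3 in each of 2 batches. Neither the mouse strain nor ages in weeks are given in the sources used here, and no source says whether each tumour came from its own mouse, so the p-values speak for the variation among these tumour samples, which could be partly technical. All tumours grew from 1 carcinoma line.

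Chemokines are small secreted proteins that guide cells along a gradient, and the CC class is named for a pair of adjacent cysteines. Ccl2, Ccl7 and Ccl12 bind Ccr2, the receptor that draws monocytes from bone marrow and blood into inflamed tissue and tumours, where they become macrophages. Ccl8 belongs to the same gene cluster but acts in mice mainly on another receptor, Ccr8. Ccl3, Ccl5 and Ccl9 act on Ccr1, a receptor of myeloid cells. Many of these ligands are made by macrophages, neutrophils, fibroblasts and some carcinoma cells when inflammatory signals reach them.

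The ligand genes lie on mouse chromosome 11 in 2 runs, by RefSeq's annotation of GRCm38.p6. In gene order, Ccl2 and Ccl7 are followed by Ccl11, Ccl12 and Ccl8, and further along Ccl5 and Ccl9 are followed by Ccl6, Ccl3 and Ccl4. Ccr2 lies on chromosome 9. RefSeq's table of promoters (250 bases before to 50 after the start, GRCm38.p6) held 5 of the 9 genes: Ccl8, Ccl12, Ccl3, Ccl9 and Ccr2. The windows of Ccl8 (chr11:82114935-82115234, plus strand) and Ccl12 (chr11:82101595-82101894, plus strand) are shown because these neighbours gave the member with the widest gap between ages and the one next to it, and that of Ccl9 (chr11:83578587-83578886, minus strand) because Ccl9 stood furthest above the cell arrays. Capitals mark matches to TATAAA, to TGANTCA (AP-1), to an NF-kB-like motif of 3 G and 2 C around 5 free bases and to an interferon-response-like motif of a repeated GAAA with 2 free bases between, searched on both strands.
Ccl8: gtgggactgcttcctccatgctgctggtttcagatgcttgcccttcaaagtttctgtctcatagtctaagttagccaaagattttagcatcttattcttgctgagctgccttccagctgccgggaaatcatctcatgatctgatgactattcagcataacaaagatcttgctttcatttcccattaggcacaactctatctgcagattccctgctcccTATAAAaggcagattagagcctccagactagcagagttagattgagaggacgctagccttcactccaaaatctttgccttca
Ccl12: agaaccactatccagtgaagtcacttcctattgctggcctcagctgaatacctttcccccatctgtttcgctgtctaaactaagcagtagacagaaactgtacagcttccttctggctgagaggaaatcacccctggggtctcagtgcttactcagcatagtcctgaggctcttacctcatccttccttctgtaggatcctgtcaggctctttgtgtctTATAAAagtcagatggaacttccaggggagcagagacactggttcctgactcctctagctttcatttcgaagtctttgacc
Ccl9: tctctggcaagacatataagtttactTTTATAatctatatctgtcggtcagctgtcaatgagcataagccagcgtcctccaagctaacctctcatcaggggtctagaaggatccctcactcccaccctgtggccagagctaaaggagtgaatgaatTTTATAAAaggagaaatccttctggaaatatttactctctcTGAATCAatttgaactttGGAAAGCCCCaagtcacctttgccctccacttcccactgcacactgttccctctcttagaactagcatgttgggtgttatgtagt
Ccl8 and Ccl12 each held 1 TATAAA, starting 32 and 31 bases before the start site, and neither held any of the other motifs. Ccl9 held 3 matches to TATAAA, 2 of which overlap on opposite strands, with 1 match to TGANTCA and, on the strand opposite to the one printed, 1 to the NF-kB-like motif. The windows of Ccl3 and Ccr2 held no match to any of the 4 motifs. Of 32851 promoter windows of the same length, 13.6% held TATAAA, 7.81% TGANTCA, 50.8% the NF-kB-like and 3.44% the interferon-response-like motif. A match is a run of letters in this window and was not tested as a binding site.

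Levels are log2 intensities after background correction and quantile normalization of the 36 arrays together, and a probe counted as detected on an array where its detection p-value was under 0.05. A probe's level is compared between samples only, since probes differ in brightness. Ccl7, Ccl12, Ccl4 and Ccr2 had 2 probes, and the one brighter over the tumours stands for the gene unless the second is named. Young irradiated replicates 6 and 8 were dim arrays, with 11860 and 14828 probes detected against 17329 to 19843 on the other tumour arrays, and results that rest on them are also given without them. Every pair of tumour arrays correlated at 0.890 or more and every pair of cell arrays at 0.983 or more over all probes. The tissue was bulk tumour, so fewer cells of a type and less RNA per cell cannot be told apart.

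The tumours were first set against the cultured line, to see which of these transcripts the tissue holds beyond those of the carcinoma cells. Ccl2 and Ccl7 were detected on 6 of 6 cell arrays and on 30 of 30 tumours, while Ccl8, Ccl12, Ccl3, Ccl4, Ccl5 and Ccl9 were not detected on any cell array. Ccl2 ran from 9.43 to 11.84 (median 10.58) on the log2 scale in tumours and from 7.86 to 8.65 (median 8.47) on the cell arrays. Ccl7 ran from 11.48 to 13.28 (median 11.99) in tumours and from 8.23 to 9.32 (median 8.59) on the cell arrays. Every tumour thus stood above every cell array for both genes. With the cell arrays averaged to 1 sample, the log2 difference was 2.21 (SE 0.59, limma adjusted p = 0.00721) for Ccl2 and 3.46 (SE 0.45, limma adjusted p = 5.98e-07) for Ccl7, and the second probe of Ccl7 also gave 3.46.

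For the 6 ligands not detected in the line, the fold is a lower bound against the lowest signal the cell arrays could detect. Here and below, such a bound compares group means and makes no allowance for sampling error, so the difference could be smaller. Ccl9 was at least 45.4-fold higher in tumours (limma adjusted p = 4.22e-14), Ccl4 at least 26.7-fold (adjusted p = 3.75e-08) and Ccl12 at least 16.4-fold (adjusted p = 5.96e-09). These 3 ligands were detected on all 30 tumours. Ccl8 was at least 6.27-fold higher (adjusted p = 0.0356), Ccl3 at least 5.08-fold (adjusted p = 0.00359) and Ccl5 at least 2.02-fold (adjusted p = 0.0209). Ccl3 was detected on 30 tumours, and Ccl8 and Ccl5 on 28 each, both missing from the 2 dim arrays. The second probes, undetected in the line as well, gave bounds of 9.72-fold for Ccl12 and 2.75-fold for Ccl4, so the size of the rise depends on the probe. With sampling error, the lower limits of limma's confidence intervals on the log2 scale were 5.41 for Ccl9, 4.43 for Ccl4 and 3.99 for Ccl12. They were 1.73 for Ccl3, 1.12 for Ccl8 and 0.73 for Ccl5. Each of these limits lies under that ligand's bound.

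In all, 8 of the 9 members were higher in tumours and 0 lower, where 11.5% of 11105 genes tested were called higher and 8.44% lower (19.9% in either direction). The same 8 had every tumour above every cell array, which held for 10.7% of genes. The direction of that count was partly fixed beforehand: 7 of the 9 members were undetected on every cell array and entered the test through the tumours alone, so for them a call could hardly go the other way, and a median difference over the members has no measured size. Ccr2, the receptor, was detected on 13 of 30 tumours and on 0 of 6 cell arrays, with a log2 difference of 0.87 (SE 0.63, adjusted p = 0.373) and no bound above 1-fold. The calls of Ccl7, Ccl12, Ccl4 and Ccl9 held under every processing tried; with the authors' own normalized values 5 members were called (Ccl8, Ccl3 and Ccl5 were not) and with median scaling 4 (Ccl2 was not either). The call of Ccl8 was also lost without background correction, with an offset of 50 and with no filter on dim probes (adjusted p = 0.105, 0.0725 and 0.0622), and that of Ccl5 with an offset of 50 (adjusted p = 0.0560), all in limma. The cell arrays are 1 source assumed to vary like the tumours.

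Several lists of host cell markers moved with the chemokines in this comparison, and others did not separate. The mean log2 level of 16 monocyte and macrophage markers ran from 8.50 to 10.17 over tumours and from 5.34 to 5.47 over cell arrays, where 13 of the 16 were not detected on any array. That of 12 neutrophil markers ran from 6.34 to 8.81 over tumours and from 5.04 to 5.18 over cell arrays, with 9 of the 12 undetected there. That of 11 fibroblast markers ran from 9.05 to 11 over tumours and from 5.98 to 6.19 over cell arrays, with 6 of the 11 undetected there. Endothelial markers (7.53 to 8.76 over tumours, 5.75 to 5.99 over cell arrays) and red blood cell markers (9.29 to 13.59, against 4.86 to 5.08) separated as well. Called higher were 13 of 16 macrophage, 4 of 12 neutrophil, 8 of 11 fibroblast, 7 of 12 endothelial and 3 of 5 red blood cell markers. The share over all genes tested was 11.5%. The ranges of T and NK cell markers (7.19 to 8.19 over tumours, 6.97 to 7.32 over cell arrays) and of dendritic cell markers (6.73 to 8.13, against 6.54 to 6.88 over cell arrays) overlapped, with 0 of 5 and 0 of 4 genes called. These were the tested genes of 17 and 10 listed. Of the tested genes, 2 and 1 were detected on all 6 cell arrays. The ranges of skeletal muscle markers (5.15 to 11.79, against 5.04 to 5.24 over cell arrays) overlapped too, with 0 of 11 called. Most macrophage, neutrophil, endothelial and red blood cell markers were undetected in the line, as were 6 of the 8 ligands. For undetected genes a call could hardly go the other way. The part of each cell type in the chemokines' levels was not tested.

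**Figure D1:**
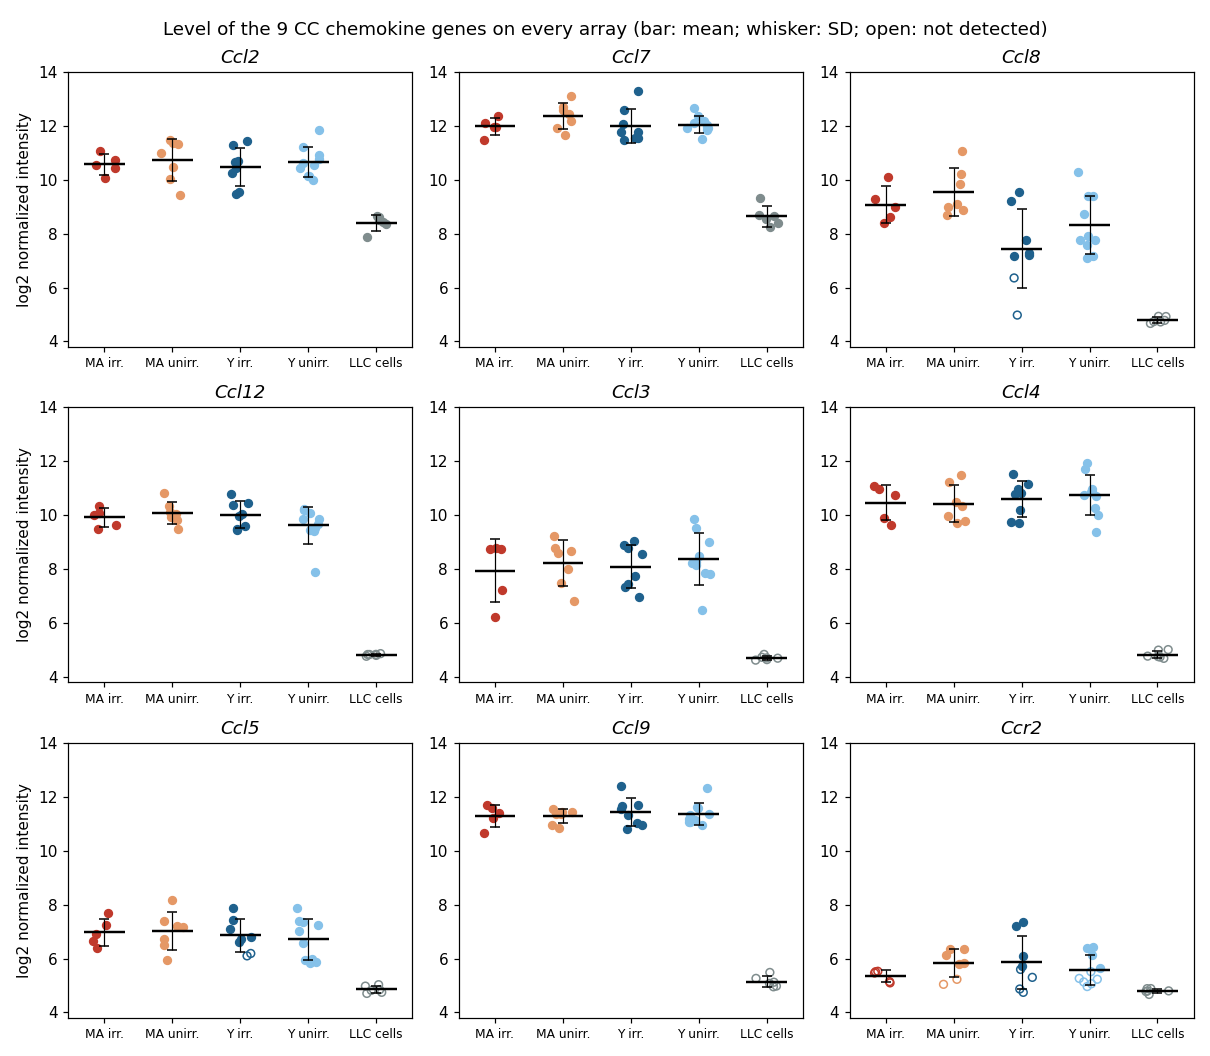
Level of each member on every array, on a log2 scale (vertical axis), by group: MA irr. and MA unirr. are middle-aged irradiated and unirradiated tumours, Y irr. and Y unirr. young ones, and LLC cells the 6 chip controls. Points are arrays, open where the probe was not detected, bars are means and whiskers 1 SD. Ccl2 and Ccl7 were the members detected in the cells, and Ccl8 had all 12 middle-aged tumours at 8.39 or above.

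Among the tumours, the design asks how the host's age and its irradiation relate to the tumour's transcripts. None of the 9 members passed limma's test at an adjusted p of 0.05 for age in irradiated mice (background 0.00917% of 10907 genes called), age in unirradiated mice (0%), irradiation in middle-aged mice (0%) or irradiation in young mice (0%). At an unadjusted p under 0.05 the count was 1 of 9 for age in irradiated mice and 1 of 9 for age in unirradiated mice, against 7.31% and 13.8% of all genes (4.26% and 5.68% for genes higher in middle-aged tumours), and Ccl8, which was higher, was that member both times. For irradiation it was 0 of 9 in middle-aged and 0 of 9 in young mice, against 6.33% and 5.54%. The groups overlapped for all 9 members in all 4 comparisons, where 0.284%, 0.0733%, 1.1% and 0% of genes, in the order just given, had groups that did not. Comparisons that share a group of tumours are not independent of each other.

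Marker lists are given beside the members. In unirradiated mice 0 of 12 neutrophil markers, 0 of 11 skeletal muscle markers and 1 of 12 endothelial markers had a higher mean in middle-aged than in young tumours, with median log2 differences of -0.51, -1.58 and -0.36, while 14 of 16 macrophage markers did, with a median of 0.20. The muscle list was highest there in young unirradiated replicates 3, 7 and 8, at 9.55, 11.68 and 11.79. Its group medians were 5.38 in middle-aged and 5.82 in young unirradiated tumours. Red blood cell markers were higher in 0 of 5 cases in unirradiated (median -0.43) and 0 of 5 in irradiated mice (median -0.56). In irradiated mice the counts were 7 of 12 neutrophil, 9 of 11 muscle, 3 of 12 endothelial and 12 of 16 macrophage markers. T and NK cell markers were higher in 3 of 5 cases in each treatment, and dendritic cell markers in 2 of 4 in unirradiated and 1 of 4 in irradiated mice. No gene of these lists passed the test, and the median over all genes was 0.00 in unirradiated and 0.02 in irradiated mice. The 9 members had median differences of 0.24 in unirradiated and -0.10 in irradiated mice. The part of these cell types in the members' levels was not tested.

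**Figure D2:**
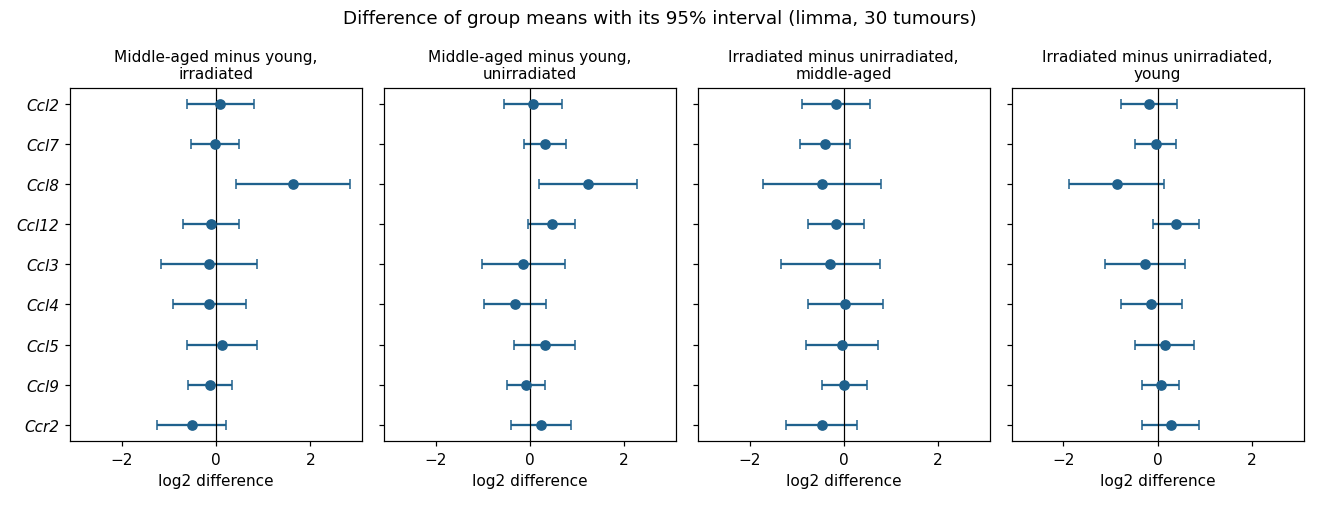
Difference of group means (horizontal axis, log2) with its 95% confidence interval for each member, from limma's fit of 30 tumours, first named group minus second. The intervals of Ccl8 lay above 0 for age in irradiated (0.42 to 2.85) and in unirradiated mice (0.19 to 2.28), and those of the other 8 members included 0 in all 4 panels.

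Ccl8, an attractant of the monocyte chemoattractant cluster, differed most with age among the members. In middle-aged irradiated tumours it stood at 9.0, 8.39, 10.11, 9.29 and 8.61 on the log2 scale, against a lowest of 4.98, a median of 7.26 and a highest of 9.55 in young irradiated tumours. In middle-aged unirradiated tumours it ran from 8.69 to 11.08 (median 9.10), against 7.10 to 10.28 (median 7.85) in young unirradiated tumours. All 12 middle-aged tumours lay at 8.39 or above, and 12 of the 18 young tumours lay below that, 6 of 8 irradiated and 6 of 10 unirradiated. The log2 difference with age was 1.63 in irradiated mice (SE 0.59, 95% interval 0.42 to 2.85, p = 0.00997, limma adjusted p = 0.583) and 1.23 in unirradiated mice (SE 0.51, interval 0.19 to 2.28, p = 0.0226, limma adjusted p = 0.300). In each of them it was the 2nd largest rise among 10907 genes, and neither passed the adjustment.

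Averaged over both treatments, a contrast added after these values were seen, the age difference of Ccl8 was 1.43 on the log2 scale (SE 0.39, interval 0.63 to 2.24, p = 0.000986, limma adjusted p = 0.110), where 0 of 9 members and 0.119% of genes were called (0.0917% higher and 0.0275% lower). At an unadjusted p under 0.05 it was again the 1 member counted, against 15.7% of genes, 7.92% of them higher. It passed with limma's array weights alone, at 1.31 and an adjusted p of 0.0335. The dim arrays bear on this gene: young irradiated replicates 6 and 8, at 4.98 and 6.35, were the 2 tumours in which Ccl8 was not detected. Without them the age difference was 1.04 in irradiated mice (adjusted p = 0.999) and 1.14 averaged (adjusted p = 0.207), and with the number of detected probes as a covariate it was 0.64 and 1.01. Ccl8 thus kept its direction with age in every setting, and its size in irradiated mice rested in part on those 2 arrays. The authors' values gave 1.05 in irradiated and 0.92 in unirradiated mice.

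Irradiation went with lower Ccl8 values at both ages, without passing the test. The log2 difference was -0.46 in middle-aged mice (SE 0.61, interval -1.71 to 0.78, limma adjusted p = 0.931) and -0.86 in young mice (SE 0.49, interval -1.87 to 0.15, limma adjusted p = 0.907). In young mice it was -0.27 without the 2 dim arrays. The difference between these irradiation effects, 0.40 (SE 0.78, interval -1.20 to 2.00), was not past the test either, and it turned to -0.19 without those arrays. No member passed the test of that difference (0 of 9, background 0% at an adjusted p and 4.42% at an unadjusted one, where the members' count was also 0).

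Ccl2, the main ligand of Ccr2, had close means in all groups. It stood at 10.05, 10.44, 10.54, 10.72 and 11.08 on the log2 scale in middle-aged irradiated tumours. It ran from 9.43 to 11.48 (median 10.99) in middle-aged unirradiated, from 9.47 to 11.44 (median 10.55) in young irradiated and from 10.0 to 11.84 (median 10.57) in young unirradiated tumours. By their means the order was 10.73, 10.66, 10.57 and 10.48 for middle-aged unirradiated, young unirradiated, middle-aged irradiated and young irradiated tumours, and each step was smaller than the SD within any group, 0.38 to 0.78. The log2 differences with age were 0.09 in irradiated mice (interval -0.62 to 0.80) and 0.07 in unirradiated mice (interval -0.54 to 0.68). Those with irradiation were -0.16 in middle-aged mice (interval -0.89 to 0.57) and -0.18 in young mice (interval -0.77 to 0.41), so changes larger than these bounds lie outside the intervals.

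Ccl7, a second Ccr2 ligand, had group means of 11.98 ± 0.32 (SD, n = 5) in middle-aged irradiated, 12.37 ± 0.48 (SD, n = 7) in middle-aged unirradiated, 12 ± 0.63 (SD, n = 8) in young irradiated and 12.04 ± 0.31 (SD, n = 10) in young unirradiated tumours. The 3 lower means differed by less than any SD, and the highest, that of middle-aged unirradiated tumours, was above young unirradiated ones by 0.33 on the log2 scale (SE 0.22, limma adjusted p = 0.521). The second probe gave the opposite sign there, -0.34 (SE 0.24), and the 2 probes of Ccl7 correlated at only 0.36 over 30 tumours (Spearman's rho 0.39). A direction for Ccl7 with age or with irradiation in middle-aged mice (-0.39 and 0.27 for the 2 probes) therefore cannot be given. The highest value, 13.28, came from young irradiated replicate 2, whose array was the brightest before normalization.

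Ccl12, a ligand of Ccr2 known in mice, averaged 9.91 ± 0.35 (SD, n = 5) in middle-aged irradiated, 10.08 ± 0.41 (SD, n = 7) in middle-aged unirradiated, 10.02 ± 0.50 (SD, n = 8) in young irradiated and 9.62 ± 0.67 (SD, n = 10) in young unirradiated tumours. Its 2 probes correlated at 0.95 over the tumours. The young unirradiated group, the lowest, included replicate 6 at 7.90, far below the next value of 9.41. The log2 difference with age in unirradiated mice was 0.46 (SE 0.25, interval -0.05 to 0.97, limma adjusted p = 0.412), with 0.57 for the second probe (SE 0.26, interval 0.04 to 1.11, p = 0.0368, limma adjusted p = 0.355), and that with irradiation in young mice 0.40 (SE 0.24, interval -0.09 to 0.89, limma adjusted p = 0.907). In irradiated mice the age difference was -0.10 (interval -0.69 to 0.48). Without young unirradiated replicate 6 the first probe gave 0.27 with age in unirradiated mice and 0.21 with irradiation in young mice. No comparison of Ccl12 passed the adjusted test.

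Ccl3 and Ccl4, attractants that macrophages and neutrophils release on activation, varied more between tumours of a group than between groups. Ccl3 stood at 6.24, 7.22, 8.75, 8.73 and 8.77 in middle-aged irradiated tumours, and ran from 6.80 to 9.24 (median 8.59) in middle-aged unirradiated, from 6.97 to 9.02 (median 8.15) in young irradiated and from 6.50 to 9.87 (median 8.23) in young unirradiated tumours. Ccl4 stood at 9.64, 9.88, 10.98, 10.73 and 11.09 in middle-aged irradiated tumours, and ran from 9.70 to 11.49 (median 10.34), from 9.72 to 11.54 (median 10.80) and from 9.39 to 11.92 (median 10.81) in the other groups in the same order. The same 2 middle-aged irradiated tumours, replicates 1 and 2, were low for both genes. Across the 4 comparisons the log2 differences ran from -0.28 to -0.14 for Ccl3 and from -0.32 to 0.04 for Ccl4, all with adjusted p of 0.700 or more. The SDs within groups were 0.81 to 1.16 for Ccl3 and 0.66 to 0.74 for Ccl4. The second probe of Ccl4 correlated with the first at 0.83.

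Ccl5, an attractant of T cells and monocytes, averaged 6.98 ± 0.50 (SD, n = 5) in middle-aged irradiated, 7.02 ± 0.72 (SD, n = 7) in middle-aged unirradiated, 6.85 ± 0.60 (SD, n = 8) in young irradiated and 6.71 ± 0.76 (SD, n = 10) in young unirradiated tumours. The age difference was 0.12 in irradiated mice (interval -0.62 to 0.87) and 0.32 in unirradiated mice (interval -0.33 to 0.96) on the log2 scale. Ccl9, a ligand of Ccr1, was the steadiest member, with an SD of 0.40 over the 30 tumours. Its group means on the log2 scale were 11.30 ± 0.41 (SD, n = 5), 11.28 ± 0.27 (SD, n = 7), 11.43 ± 0.52 (SD, n = 8) and 11.36 ± 0.41 (SD, n = 10) in middle-aged irradiated, middle-aged unirradiated, young irradiated and young unirradiated tumours. In the 4 comparisons no interval for Ccl9 reached beyond -0.60 or 0.50 under this normalization; with median scaling the age difference in irradiated mice was 0.74, where the median of all genes was 0.66. The 2 highest Ccl9 values were 12.41 in young irradiated replicate 2 and 12.34 in young unirradiated replicate 2.

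Ccr2, the receptor of monocytes, was near the detection limit throughout. It was detected on 0 of 5 middle-aged irradiated tumours, 5 of 7 middle-aged unirradiated, 4 of 8 young irradiated and 4 of 10 young unirradiated tumours. The middle-aged irradiated values were 5.14, 5.10, 5.53, 5.46 and 5.51 on the log2 scale, all undetected, against 5.04 to 6.36 (median 5.83) in middle-aged unirradiated tumours and 4.74 to 7.37 (median 5.67) in young irradiated tumours. Middle-aged irradiated tumours were at least 1.20-fold lower than middle-aged unirradiated ones (limma adjusted p = 0.888) and at least 1.24-fold lower than young irradiated ones (limma adjusted p = 0.722), and neither passed. The 2 highest tumours were young irradiated replicates 2 and 1, at 7.37 and 7.20. Without replicate 2 the log2 difference with age in irradiated mice was -0.30, against -0.52 with it. The difference between the irradiation effects was -0.75 (SE 0.47, interval -1.72 to 0.21, limma adjusted p = 0.981). The second Ccr2 probe was not detected on any of the 36 arrays, so it has no level to compare.

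Several members varied together from tumour to tumour. Of 36 pairs of members, 8 correlated across the 30 tumours at an adjusted p under 0.05 (two-sided permutation tests with 100000 resamples, Benjamini-Hochberg over 36 pairs), all positively. The share among pairs of other genes was not computed, so whether the members stand out by this count was not tested. Ccl3 and Ccl4 were the closest pair, with Pearson's r of 0.88 and Spearman's rho of 0.90 (each p = 1e-05, the smallest the permutations can give, adjusted p = 0.00018). Their r was 0.86 without the 2 tumours farthest from the median of Ccl3, and 0.89 on deviations from the group means. It was 0.82, 0.87 and 0.92 within the middle-aged unirradiated, young irradiated and young unirradiated tumours. Ccl2 and Ccl7, neighbours on chromosome 11, came next with r of 0.76 and rho of 0.80 (each adjusted p = 0.00018). Their r was 0.79 without the 2 tumours farthest from the median of Ccl2 and 0.78 on group deviations. All correlations of Ccl7 with other genes or lists, here and below, are those of its brighter probe. Its second probe, which correlated with the first at only 0.36, was not set against other genes, so these relations hold for 1 probe. The middle-aged irradiated group, with 5 tumours, was too small for a value of its own.

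**Figure D3:**
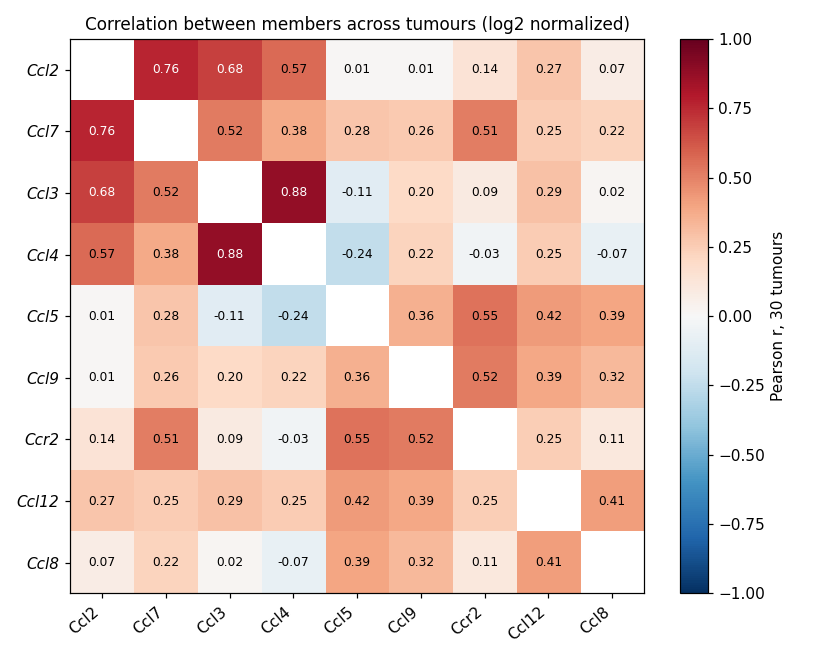
Pearson's r (colour and number) between the log2 levels of each pair of members over 30 tumours. Ccl2, Ccl7, Ccl3 and Ccl4 form a block with r of 0.38 to 0.88, while Ccl5, Ccl9 and Ccr2 correlate at 0.36 to 0.55. Ccl7 is represented by its brighter probe alone.

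Ccl2 also followed Ccl3 (r 0.68, rho 0.74, adjusted p = 0.0006 and 0.00024) and Ccl4 (r 0.57, rho 0.59, adjusted p = 0.0114 and 0.0045). Ccl7 followed Ccl3 (r 0.52, rho 0.62, adjusted p = 0.0172 and 0.00342), though its r with Ccl4 was 0.38 and not past the test (adjusted p = 0.110). Ccr2, the receptor, correlated with Ccl5 (r 0.55, rho 0.58, adjusted p = 0.0114 and 0.0045) and with Ccl9 (r 0.52, rho 0.52, adjusted p = 0.0172 and 0.0189). Ccr2 and its ligand Ccl7 gave r of 0.51 and rho of 0.45 (adjusted p = 0.0172 and 0.0465). Their r fell to 0.29 without the 2 tumours farthest from the median of Ccl7, so its size depends in part on them. It was 0.52 on group deviations and 0.48 without the dim arrays, both past the test. With median scaling it was 0.33, not past the test (permutation adjusted p = 0.0819). None of these 3 pairs with Ccr2 passed on the authors' values, at r of 0.38, 0.34 and 0.18. Ccr2 itself was undetected on 17 of the 30 tumours.

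Ccl8 stood apart from its cluster neighbour Ccl2, with r of 0.072 (rho 0.080, adjusted p = 0.80), and its r with Ccl12 was 0.41 (rho 0.43, adjusted p = 0.0872). On deviations from the group means Ccl8 and Ccl12 gave r of 0.50, which passed. Ccl12 and Ccl2 gave 0.27 (adjusted p = 0.290). Within the middle-aged unirradiated tumours alone Ccl8 and Ccl2 ran in opposite directions, with r of -0.70 over 7 tumours, against 0.16 and 0.32 in young irradiated and young unirradiated tumours; whether these differ was not tested.

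The members were then set against the mean log2 level of 8 lists of cell type markers and against the number of detected probes, a measure of array brightness. Of 81 such pairs, 10 passed at an adjusted p under 0.05. How many pairs of other genes with these measures would pass was not computed. The neutrophil list includes S100a8 and Mmp9. Its mean level followed Ccl3 (r 0.80, rho 0.79, each adjusted p = 0.000405) and Ccl4 (r 0.80, rho 0.78, each adjusted p = 0.000405). It also followed Ccl2 (r 0.67, rho 0.67, adjusted p = 0.00162 and 0.00216). These held without the 2 tumours farthest from the median of the chemokine (0.76, 0.76 and 0.61) and on group deviations (0.83, 0.80 and 0.72). Macrophage markers ran the other way for Ccl4 (r -0.50, rho -0.45, adjusted p = 0.0358 and 0.106) and followed Ccl5 (r 0.67, rho 0.61, adjusted p = 0.00162 and 0.00911). With median scaling in place of quantile normalization the macrophage list gave r of 0.38 with Ccl4, so the negative sign depends on the scaling, while the neutrophil relations were 0.83, 0.82 and 0.72.

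**Figure D4:**
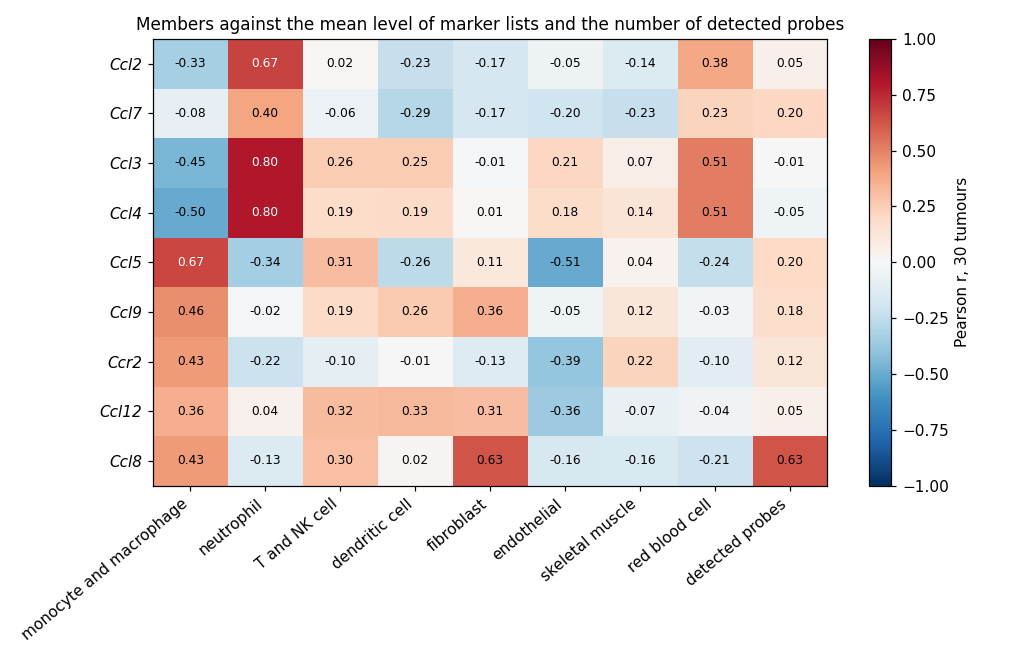
Pearson's r (colour and number) of each member with the mean log2 level of each marker list, and with the number of detected probes, over 30 tumours. Ccl3 and Ccl4 have their highest r with neutrophil markers (0.80 each), Ccl5 with macrophage markers (0.67) and Ccl8 with fibroblast markers and detected probes (0.63 each).

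The fibroblast list includes Col1a1 and Dcn. Ccl8 followed its mean level (r 0.63, rho 0.51, adjusted p = 0.00405 and 0.0580) and the number of detected probes (r 0.63, rho 0.44, adjusted p = 0.00405 and 0.110). Without the 2 dim arrays the first was 0.56 and the second 0.24, which did not pass. On the authors' values the relation with fibroblast markers was lost (r 0.47, adjusted p = 0.0507). The fibroblast list ran from 9.65 to 10.26 (median 9.72) in middle-aged irradiated tumours, against 9.05 to 9.87 (median 9.67) in young irradiated tumours. In unirradiated mice it ran from 9.42 to 10.57 (median 9.95) in middle-aged tumours, against 9.53 to 11 (median 9.90) in young ones. With age, 10 of its 11 tested genes had a positive log2 difference in irradiated mice and 6 of 11 in unirradiated mice, with 0 past the test; the part of fibroblasts in the level of Ccl8 was not tested. Ccl5 ran against endothelial markers (r -0.51, rho -0.43, adjusted p = 0.0358 and 0.114), again positive under median scaling (0.38). On group deviations neither this pair nor Ccl4 with macrophage markers passed (r -0.48 and adjusted p = 0.0507 for each).

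**Figure D5:**
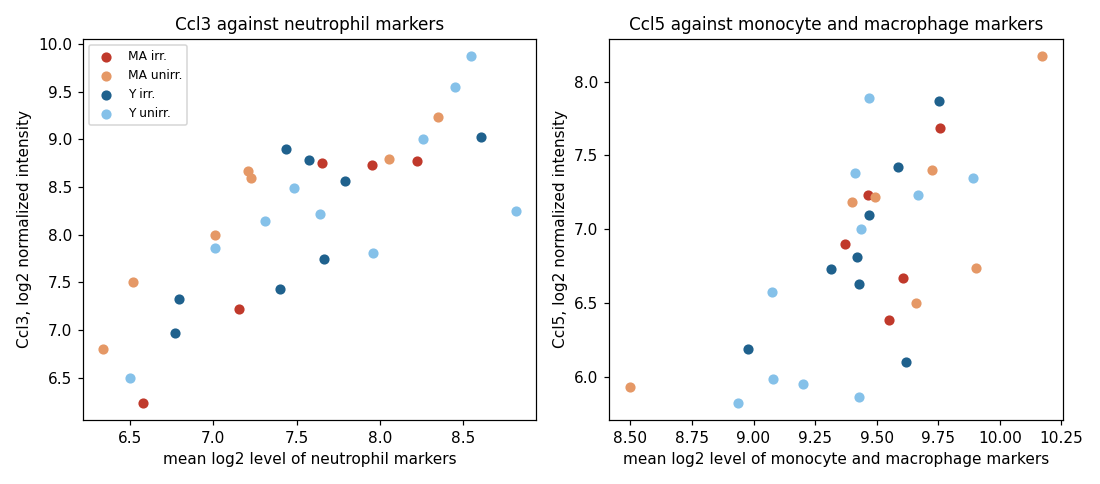
Log2 level (vertical axes) of Ccl3 against the mean log2 level of neutrophil markers and of Ccl5 against that of monocyte and macrophage markers (horizontal axes), 1 point per tumour, coloured by group. Tumours of all 4 groups spread along both relations (r 0.80 and 0.67).

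Ccl3 and Ccl4 also followed red blood cell markers (r 0.51 each, rho 0.47 and 0.46, each adjusted p = 0.0358 for r and 0.0842 for rho). Without the 2 tumours farthest from the median of the chemokine r was 0.42 and 0.47. The call of Ccl3 was lost on the authors' values (r 0.46, adjusted p = 0.0523) and without the dim arrays (r 0.51, adjusted p = 0.0589), while Ccl4 kept it in both. Within the middle-aged unirradiated tumours these r were negative (-0.56 and -0.38) and within young ones positive (0.75 and 0.78 in irradiated, 0.70 and 0.68 in unirradiated), so the pooled value does not hold in all groups. The macrophage list gave r of 0.46 with Ccl9 (rho 0.54, adjusted p = 0.0765 and 0.0360), so that pair passed by rank, and it passed on group deviations as well (r 0.51, adjusted p = 0.0433) but not on the authors' values (r 0.36, adjusted p = 0.196). Its r was 0.43 with Ccl8 and with Ccr2 and 0.36 with Ccl12, none past the test over 81 pairs by r or rho. Members and markers were read on the same arrays and share their normalization. Depletion or gain of a cell type was not measured here.

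As a description, the 3 genes most like each member over the 30 tumours were found among all non-members tested. For Ccl3 they were Il1b (interleukin-1 beta, r 0.90), Hcar2 (the niacin receptor, 0.87) and Hdc (histidine decarboxylase, 0.87), and for Ccl4 Tlr6 (a Toll-like receptor, 0.89), Osm (the cytokine oncostatin M, 0.89) and Slc40a1 (the iron exporter ferroportin, 0.88). For Ccl2 they were Fas (a death receptor, 0.80), Glrx (glutaredoxin, 0.76) and Stx11 (a syntaxin, 0.76), and for Ccl7 Vps29 (a retromer subunit, 0.82), Sestd1 (0.78) and Cd9 (a tetraspanin, 0.77). For Ccl5 they were Dhx58 (an antiviral RNA sensor induced by interferon, 0.84), Phf11d (0.83) and Cd72 (a receptor of B and myeloid cells, 0.81). For Ccl9 they were Ms4a6d (0.78), Clec4n (a C-type lectin of myeloid cells, 0.77) and its chromosomal neighbour Ccl6 (0.73). For Ccl8 they were Cndp2 (a dipeptidase, 0.76), F13a1 (the A chain of clotting factor XIII, 0.75) and C4b (complement, 0.75), and for Ccl12 Mrc1 (the mannose receptor of macrophages, 0.72), Htra1 (a serine protease, 0.71) and Vcam1 (an adhesion molecule, 0.66). For Ccr2 they were Tm6sf1 (0.77), Dtx3l (a ubiquitin ligase, 0.76) and 9930012K11Rik (0.76). Each was picked as the highest of 10907 genes less the members, so these r are descriptions with no test.

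Other genes of the family were scarce. Of 13 other CC ligands with a probe, 4 were detected on 5 or more tumours: Ccl6 on 29, Ccl11 (an eosinophil attractant) on 30, Ccl25 on 30 and Ccl27a on 25. Against the LLC cells 3 of these 4 were higher, where 11.5% of 11105 genes tested were called higher. The rise was at least 6.69-fold for Ccl6, 2.69 on the log2 scale for Ccl11 (SE 0.69, detected on 2 of 6 cell arrays) and at least 1.16-fold for Ccl27a (limma adjusted p = 3.53e-05, 0.0049 and 0.00676). Ccl6 and Ccl27a were not detected on any cell array, so for them a call could hardly go the other way. Ccl25, detected on 6 of 6 cell arrays, differed by 0.21 (SE 0.28). Ccl19 and Ccl21a were detected on 2 tumours each, Ccl24 on 4 and Ccl26 on 1, and Ccl1, Ccl17, Ccl20, Ccl22 and Ccl28 on none. Between tumour groups 0 of the 4 tested ligands passed in any comparison. With age the smallest p were those of Ccl11 in irradiated mice (log2 difference 0.63, SE 0.37, limma adjusted p = 0.702) and Ccl25 in unirradiated mice (-0.26, SE 0.13, limma adjusted p = 0.393).

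Of 12 other CC receptors and scavengers with a probe, 5 were tested: Ccr6 (detected on 5 tumours), Ccr7 (on 6), Ccrl2 (on 29), Ackr2 (on 11) and Ackr4 (on 27). None of the 5 passed against the cells or between tumour groups. Nearest were Ccrl2 against the cells (log2 difference 0.85, SE 0.43, limma adjusted p = 0.171) and Ccr7, which guides dendritic cells to lymph nodes, with irradiation in young mice (-0.33, SE 0.14, limma adjusted p = 0.885). Ccr1 and Ccr3 were detected on 1 tumour each, and Ccr4, Ccr8, Ccr9, Ccr10 and Ackr1 on none, so most receptors of the ligands described had no measurable level.

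The 11 tested genes of cytokine and NF-kB signalling held receptors and inhibitors as well as inducers of chemokines. Of these 11, 6 were higher in tumours than in cells and 0 lower, where 11.5% of 11105 genes tested were called higher and 8.44% lower. Il1b, Tnfaip3 and Tnfrsf1b were not detected on any cell array, so for them a call could hardly go the other way. Relb, an NF-kB subunit, had a log2 difference of 2.28 (SE 0.25, limma adjusted p = 2.18e-08), Il1b at least 19.4-fold (adjusted p = 2.48e-05), Nfkbiz, an NF-kB cofactor, by 2.32 (SE 0.39, adjusted p = 3.17e-05) and Tnfaip3, an NF-kB inhibitor, at least 2.77-fold (adjusted p = 0.00409). Between tumour groups 0 of the 11 passed. With age in unirradiated mice Nfkb2 had the smallest p (log2 difference -0.36, SE 0.18, limma adjusted p = 0.378), and with irradiation in middle-aged mice Rela (0.20, SE 0.11, limma adjusted p = 0.814).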

How the data were processed

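Transcript levels came from BeadArrays of the Illumina Mouse WG-6 type. The deposited intensity values (mean bead brightness of each probe, not normalized between arrays) and detection p-values have the column names of GenomeStudio, a tool that the submitters' processing notes list; no version of it is given. The authors also deposited normalized intensity, described in the series text as rank variant normalization with no further method. Those values served only as an alternative, on the log2 scale with a floor of 16. No source ties a tumour to a chip or batch, so no value within batches can be given.

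Background was corrected by normexp (limma's neqc, offset 16), with the control distribution estimated through the detection p-values, and the 36 arrays were quantile normalized together. The brightest probe over the tumours stood for its gene. Genes detected on at least 5 of 30 tumours (10907), or at least 5 of 36 arrays against the cells (11105), were tested with limma 3.58.1 in R 4.3.3, all 30 tumours in 1 fit of 4 group means, with Benjamini-Hochberg adjustment over all genes; second probes were adjusted over all probes. The 6 cell arrays were averaged to 1 sample. Values near background are compressed, which understates the differences of dim genes. Where a whole group lacked detection, the fold is a lower bound: the dim group is set at its arrays' lowest detected signal, or at the probe's own signal if that is higher. Such a bound compares group means and makes no allowance for sampling error. The number of arrays limits precision. The procedures were tested on simulated data.

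The 9 members, 11 lists and tests were chosen with earlier results of these data known. Named genes were the members with every probe, the 3 genes most like each member, every gene of the CC family with a probe, and, of other lists described, those with the smallest p. Probes were named through the platform's table, where 34885 of 45281 carry 1 symbol and 18 several. Alternatives were the authors' values, no background correction, offset 50, median scaling, other filters, probe means, array weights, dim arrays or single samples left out, detected probes as a covariate, another variance prior and a replicate block.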

Additional observations from a re-analysis of the deposited data

Results flagged for a closer look

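In 36 sets of 1 member and 1 tumour group, 2 held a tumour far from the others of its group; chance flags about 1 such set in 20. Ccl12 was low in young unirradiated replicate 6, at 7.90 on the log2 scale with the next tumour at 9.41, and its second probe was low in the same tumour, at 7.15. Ccl9 was high in young unirradiated replicate 2, at 12.34 with the next tumour at 11.63. Both probes were detected on those arrays.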

How the results depend on the processing

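Of 694 recomputed log2 differences 634 kept their direction and their side of the threshold, 48 reversed, 11 lost and 1 gained a call; of 140 recomputed correlations 112 held, 14 gained, 10 lost and 4 reversed. Every reversed log2 difference below was not called, while 2 of the reversed correlations were (Ccl4 with macrophage and Ccl5 with endothelial markers); no cause was tested. No label pairs tumours by replicate number. Deviations of same-numbered tumours had a median correlation of 0.0506 (-0.324 to 0.383), against 0.0016 (-0.448 to 0.523) for others. Such values cannot show whether same-numbered tumours were handled together.

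Genes called for age in unirradiated mice were 0, but 1 on the authors' values, 413 with array weights, 29 without the dim arrays and 0 to 123 with 1 tumour left out (123 without young unirradiated replicate 5). For age in irradiated mice the count was 1, but 3 on the authors' values, 2 with no background correction or no filter, 6 with array weights, 0 with an offset of 50, median scaling, a filter of 15 tumours, the dim arrays left out, detected probes as a covariate, another variance prior or the replicate block, and 0 to 3 with 1 tumour left out (0 without middle-aged irradiated replicate 1, 3 without young irradiated replicate 4). For irradiation in young mice it was 0 to 1 (1 without young unirradiated replicate 9), and in middle-aged mice 227 with array weights. For age over both treatments it was 13, but 21 with an offset of 50, 4 with no filter, 188 with array weights (1 member, Ccl8), 8 without the dim arrays or with the covariate, 2 with the replicate block, and 3 to 55 with 1 tumour left out (3 without middle-aged irradiated replicate 3, 55 without young irradiated replicate 2). Against the cells, 2211 genes and 8 members were called, 343 and 4 with median scaling and 5 members on the authors' values. Member pairs past the test were 8, but 5 on the authors' values and 28 with median scaling, and list pairs were 10 but 49 with median scaling.

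Median scaling moved the median of all genes to 0.22 and 0.66 (age in unirradiated and irradiated mice), -0.31 and 0.11 (irradiation in young and middle-aged mice), 0.42 (their difference) and -0.25 (against cells). It turned Ccl3 to 0.17 and Ccl9 to 0.12 for age in unirradiated mice, both under that shift, and Ccl7 to 0.91, Ccl12 to 0.71, Ccl3 to 0.55, Ccl4 to 0.70 and Ccl9 to 0.74 for age in irradiated mice. It also turned Ccl12 to -0.017 and Ccl9 to -0.45 for irradiation in young mice, Ccl5 to 0.031 in middle-aged mice and Ccl7 to 0.46 for the difference, and r with macrophage markers to 0.29 for Ccl3 and 0.38 for Ccl4 and with endothelial markers to 0.38 for Ccl5. The authors' values turned Ccl2 to -0.033 (age, unirradiated), Ccl7 to 0.11 and Ccl5 to -0.017 (age, irradiated), Ccl9 to -0.050 (irradiation, young) and Ccl7 to 0.0070 (difference). Averaging probes turned Ccl7 to -0.0072 (age, unirradiated) and Ccl4 to -0.076 (irradiation, middle-aged). Array weights turned Ccl7 to 0.13, Ccl12 to 0.056, Ccl3 to 0.27 and Ccl4 to 0.18 (age, irradiated). Without the dim arrays Ccl5 was -0.12 (age, irradiated), Ccl7 0.074 (irradiation, young) and Ccl8 -0.19 (difference); with the covariate Ccl5 was -0.10, Ccl7 0.069, Ccl8 -0.73 and Ccl9 -0.057 (irradiation, middle-aged). With the replicate block Ccl5 was -0.20 (age, irradiated), Ccl9 -0.10 (irradiation, middle-aged) and Ccl8 -0.041 (difference); it changed no member's call, and Ccl8 was 1.21, 1.17 and 1.19 for age in unirradiated mice, irradiated mice and both. On group deviations Ccl2 and Ccl8 had r of -0.0039.

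With 1 tumour left out, age in unirradiated mice ran from -0.058 to 0.28 for Ccl2, -0.35 to 0.10 for Ccl3 and -0.13 to 0.030 for Ccl9. Age in irradiated mice ran from -0.053 to 0.23 for Ccl2, -0.12 to 0.16 for Ccl7, -0.21 to 0.0067 for Ccl12, -0.36 to 0.27 for Ccl3, -0.30 to 0.058 for Ccl4, -0.056 to 0.27 for Ccl5 and -0.23 to 0.032 for Ccl9. Irradiation in young mice ran from -0.22 to 0.033 for Ccl7 and -0.071 to 0.18 for Ccl9. In middle-aged mice it ran from -0.52 to 0.14 for Ccl3, -0.12 to 0.24 for Ccl4, -0.23 to 0.15 for Ccl5 and -0.078 to 0.18 for Ccl9. The age difference of Ccl8 stayed between 0.98 and 1.45 in unirradiated and 1.28 and 1.94 in irradiated mice. Signal over background limits Ccr2, Ccl5 and, on dim arrays, Ccl8.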
